A study of Rattus norvegicus with 10 samples.

Results

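The cholesterol synthesis genes described here are 8 named genes, Hmgcs1, Acat2, Idi1, Sqle, Cyp51, Nsdhl, Dhcr7 and Insig1, measured in whole mammary glands of female SD (Sprague-Dawley) rats at postnatal day 21. A probe set, a group of short oligonucleotides read together on the array, was included when the platform annotation gave it 1 of these symbols alone. That rule found 9 of 15866 probe sets, for 7 of the 8 genes, with 2 probe sets each for Idi1 and Cyp51. The rule found no probe set for Hmgcs1, which was not analysed here. The genes had been picked with their soy against casein difference and its dependence on the array casein 18 in view, and these values are therefore given as a description, without a test. No receptor of cholesterol uptake is among the 8 genes.

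All rats were exposed from gestation day 4 until weaning to AIN-93G, a purified rodent diet, with either casein or soy protein isolate as its protein. Each diet has 5 arrays, named by the sample titles (casein 6, 7, 10, 18 and 20, titled CAS, and soy 147, 149, 155, 157 and 159, titled SPI). The labels describe replicate labelled targets made from RNA pools, so an array may not be a separate animal, and the spread between arrays may be partly technical. The comparison of the diets addresses the effect of soy protein on the early mammary gland.

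Animal cells build cholesterol from acetyl-CoA through mevalonate, isoprenoids and squalene to lanosterol, which a series of further enzymes turns into cholesterol. When sterol in the endoplasmic reticulum is low, SCAP escorts the SREBP transcription factors to the Golgi, where proteases release them to activate these genes. INSIG proteins hold SCAP back when sterol is plentiful, and Insig1 is itself an SREBP target. In the mammary gland sterol is needed for growing membranes and, in lactation, for milk fat globules.

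Promoter sequence of 6 of the 7 measured genes was found in RefSeq (rat build GRCr8). The windows of 3 genes are shown because Insig1 and Nsdhl had the most similar signals of any members across the arrays, while the brighter Idi1 probe set followed them least among the members other than Sqle. Each runs 5′ to 3′ on the gene's strand and ends where the annotated gene begins, which leaves 207 bases for Insig1, 191 for Nsdhl and 250 for Idi1, and capitals mark the motif letters found by the search described next. The Insig1 window is chr4:8057813-8058019 (minus strand), the Nsdhl window chrX:155817110-155817300 (plus strand) and the Idi1 window chr17:66547525-66547774 (minus strand).
Insig1: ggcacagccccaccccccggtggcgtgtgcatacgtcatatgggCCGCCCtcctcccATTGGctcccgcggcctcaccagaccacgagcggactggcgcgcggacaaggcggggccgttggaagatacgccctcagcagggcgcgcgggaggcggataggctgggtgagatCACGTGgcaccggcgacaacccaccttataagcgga
Nsdhl: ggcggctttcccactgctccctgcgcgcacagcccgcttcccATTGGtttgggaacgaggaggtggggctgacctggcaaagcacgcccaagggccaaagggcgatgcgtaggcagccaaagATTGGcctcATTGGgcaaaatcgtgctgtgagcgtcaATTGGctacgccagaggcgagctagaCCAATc
Idi1: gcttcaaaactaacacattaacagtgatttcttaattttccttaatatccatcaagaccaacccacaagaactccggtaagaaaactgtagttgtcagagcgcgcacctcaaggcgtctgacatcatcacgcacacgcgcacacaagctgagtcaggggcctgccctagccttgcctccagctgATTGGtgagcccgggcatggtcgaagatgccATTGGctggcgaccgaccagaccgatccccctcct

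The search covered 4 motifs on both strands of the 250 bases before the transcript start of the promoter table, which for Insig1 and Nsdhl run past the printed stretch into the annotated gene, namely the sterol regulatory element core TCACNCCAC, the inverted CCAAT box ATTGG bound by NF-Y, the GC box GGGCGG bound by Sp1 factors and the E-box CACGTG. No motif overlapped another, except that the 2 GC boxes of Dhcr7 share a base. The CCAAT box was found in 3 of the 6 promoters, Nsdhl with 5 matches, Idi1 with 2 and Insig1 with 1, and 34.0% of 33469 rat promoters hold it. The GC box was found in 4 of the 6, Acat2, Dhcr7, Insig1 and Cyp51, against 30.5% of all promoters. The E-box was found in 1 of the 6, Insig1, where it begins 36 bases before the annotated gene, against 5.59%. The sterol regulatory element core, held by 0.974% of all promoters, was in none of the 6 windows, which says only that these letters are not there. A match is a description of the sequence, not of a bound site.

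Values are log2 of the MAS5 signal, a summary of a probe set's brightness on a linear scale, and 9520 probe sets were bright enough to be tested (a mean of at least 7.47, a signal of 177). All 9 member probe sets passed this filter, which does not use the diet. The median signal per array lay between 255.7 and 286, and the Spearman correlation of any pair of arrays between 0.924 and 0.983. The 3′ to 5′ log2 ratio of the actin control, a measure of RNA integrity, ran from 0.29 to 0.63 in casein. In soy it ran from 0.50 to 0.65. The same ratio of the GAPDH control was 0.59 in casein 18 and 0.18 to 0.37 in the other casein arrays. It was 0.35 to 0.64 in soy. The adipocyte marker Fabp4 was bright in all arrays, between 13.37 and 14.06. Cebpa, a dimmer adipocyte marker, ran from 7.32 in soy 147 to 9.19 in casein 20. The luminal keratin Krt18 lay at 4.49 in casein 6 and between 7.39 and 10.93 elsewhere. Other luminal markers were lower in soy 159, with Krt19 at 6.31 and Epcam at 4.53, against 6.58 and 7.67 in casein 6. In whole glands, fewer cells of a type and less RNA per cell cannot be told apart.

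Of the 7 genes, 6 had a lower mean in soy and Sqle a higher one. The median difference, soy minus casein, was -0.455 at the brightest probe set of each gene (range -0.59 to 0.45), where all 7151 tested genes had a median of -0.011. The soy mean was below the casein mean for 8 of the 9 member probe sets and for 52.7% of all tested. After adjustment in limma no probe set of the 9520 (0, or 0.0%) reached 0.05, while 433 (4.55%) had an unadjusted p under 0.05, 213 of them (2.24%) lower in soy. The arrays of the diets overlapped for every member probe set, and were apart for 0.798% of all tested. As the members were chosen on this contrast, nothing is read from their counts.

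**Figure D1:**
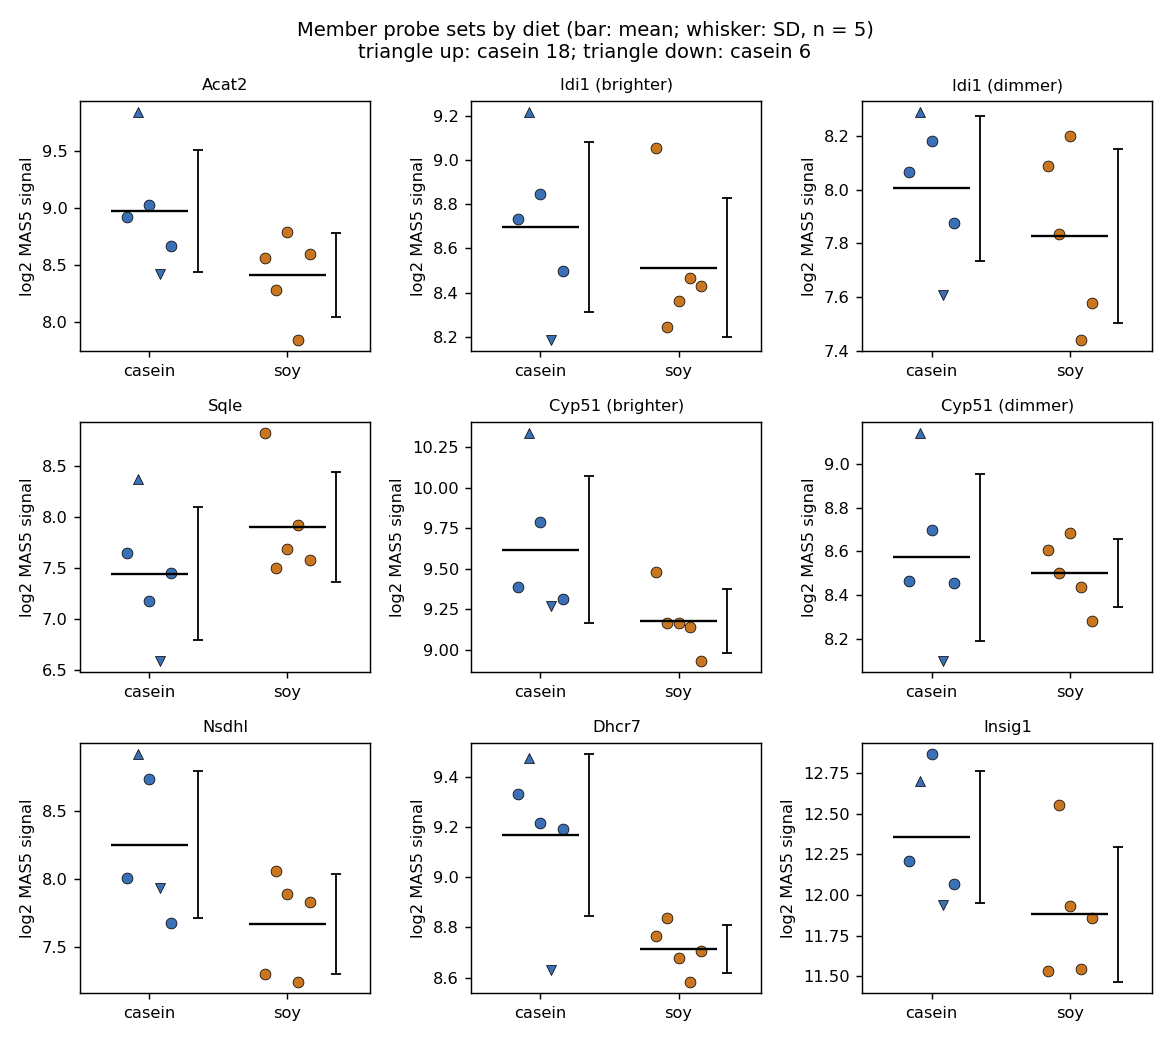
Log2 MAS5 signal (vertical axis, a separate range in each panel) of the 9 member probe sets in 5 casein and 5 soy arrays; points are arrays (triangle up casein 18, triangle down casein 6), bars are means and whiskers are 1 SD. Casein 18 is the highest casein array in 8 of the 9 panels and casein 6 the lowest in 8, and Sqle is the 1 gene with the higher mean in soy.

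Acat2, the cytosolic acetyl-CoA acetyltransferase that joins the first acetyl units, had log2 signals of 8.92 in casein 10, 9.84 in casein 18, 9.02 in casein 20, 8.42 in casein 6 and 8.67 in casein 7. Soy 147 had 8.56, soy 149 8.28, soy 155 8.79, soy 157 7.84 and soy 159 8.59. Casein 10, 18 and 20 lay above every soy array, and casein 6 and 7 lay within the soy range. The casein mean was 8.97 ± 0.54 (SD, n = 5) and the soy mean 8.41 ± 0.37 (SD, n = 5), a difference of -0.56 ± 0.25 (SE), or 0.679 times the casein signal. Without casein 18 the difference was -0.34.

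Idi1, the isopentenyl-diphosphate isomerase that balances the isoprenoid building blocks, was measured by a brighter and a dimmer probe set. The brighter had 8.73, 9.21, 8.85, 8.19 and 8.50 in casein 10, 18, 20, 6 and 7. It had 9.05, 8.24, 8.36, 8.47 and 8.43 in soy 147, 149, 155, 157 and 159. Soy 147 stood above every casein array but casein 18, and the other soy arrays lay within the casein range. The difference was -0.18 ± 0.20 (SE), smaller than its error, and the dimmer probe set had the same size, -0.18 ± 0.18 (SE), with 8.07, 8.29, 8.18, 7.61 and 7.88 in casein and 8.09, 7.84, 8.20, 7.44 and 7.58 in soy, in the same array order. Both values moved by over 1.5 times with several single arrays. The brighter was -0.05 without casein 18, -0.12 without soy 149, -0.31 without casein 6 and -0.32 without soy 147. The dimmer was -0.11 without casein 18 or soy 159, -0.08 without soy 157, -0.27 without soy 155 and -0.28 without casein 6.

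Sqle, squalene epoxidase, the first oxygen-requiring step of sterol synthesis, went the other way from the other 6 genes. Its log2 signal was 7.64 in casein 10, 8.36 in casein 18, 7.17 in casein 20, 6.59 in casein 6 and 7.45 in casein 7. Soy 147 had 8.82, soy 149 7.50, soy 155 7.68, soy 157 7.91 and soy 159 7.57. All 5 soy arrays lay above the casein mean, soy 147 was highest of all, and casein 18 lay above the other 4 soy arrays. The casein mean was 7.44 ± 0.65 (SD, n = 5) and the soy mean 7.90 ± 0.54 (SD, n = 5), a difference of 0.45 ± 0.33 (SE), or 1.37 times the casein signal. It was 0.68 without casein 18, 0.24 without casein 6 and 0.22 without soy 147.

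Cyp51, the lanosterol demethylase, was measured by 2 probe sets of 1 accession, which gave different values. The brighter, of a type that can match several transcripts, had 9.39, 10.34, 9.79, 9.27 and 9.31 in casein 10, 18, 20, 6 and 7. In soy 147, 149, 155, 157 and 159 it had 9.48, 9.16, 9.17, 9.14 and 8.93. Casein 18 and casein 20 lay above every soy array, and the other 3 casein arrays lay below soy 147. The difference was -0.44 ± 0.20 (SE), or 0.736 times the casein signal, and -0.26 without casein 18.

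At the dimmer Cyp51 probe set the casein arrays had 8.47, 9.14, 8.70, 8.10 and 8.46 and the soy arrays 8.61, 8.50, 8.69, 8.44 and 8.28, in the same array order. Only casein 18 and casein 20 lay above all soy arrays here, and casein 6 below them. The difference was -0.07 ± 0.17 (SE) and turned to 0.07 without casein 18. It was -0.04 without casein 20, -0.02 without soy 159, -0.12 without soy 155 and -0.19 without casein 6.

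Nsdhl, a sterol dehydrogenase that helps remove the methyl groups at carbon 4 of the ring, had 8.01, 8.92, 8.73, 7.93 and 7.68 in casein 10, 18, 20, 6 and 7. In soy 147, 149, 155, 157 and 159 it had 7.30, 8.06, 7.89, 7.25 and 7.83. Soy 147 and soy 157 lay below all casein arrays, and casein 18 and casein 20 above all soy arrays. The casein mean was 8.25 ± 0.54 (SD, n = 5) and the soy mean 7.67 ± 0.37 (SD, n = 5), a difference of -0.59 ± 0.26 (SE), or 0.666 times the casein signal, the furthest below 0 of the 9 probe sets. Without casein 18 it was -0.42.

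Dhcr7, the reductase of the last step to cholesterol in 1 branch of the pathway, had 9.33 in casein 10, 9.48 in casein 18, 9.22 in casein 20, 8.63 in casein 6 and 9.19 in casein 7. Soy 147 had 8.76, soy 149 8.84, soy 155 8.68, soy 157 8.58 and soy 159 8.71. All casein arrays but casein 6 lay above every soy array, and casein 6 lay within the soy range. The 5 soy arrays spanned 0.254 log2 units, against 0.847 for casein. The casein mean was 9.17 ± 0.32 (SD, n = 5) and the soy mean 8.71 ± 0.095 (SD, n = 5), a difference of -0.45 ± 0.15 (SE), or 0.73 times the casein signal. Leaving out 1 array gave values from -0.59, without casein 6, to -0.38, without casein 18.

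Insig1, the sterol-responsive brake on SREBP activation, was the brightest member, at the 98.2nd percentile of mean signal on these arrays, which is not a rank of abundance between genes. It had 12.21, 12.70, 12.86, 11.94 and 12.07 in casein 10, 18, 20, 6 and 7. In soy 147, 149, 155, 157 and 159 it had 11.53, 12.55, 11.93, 11.54 and 11.86. Soy 149 lay above 3 casein arrays, and the other 4 soy arrays lay below all casein arrays. The casein mean was 12.36 ± 0.41 (SD, n = 5) and the soy mean 11.88 ± 0.41 (SD, n = 5), a difference of -0.47 ± 0.22 (SE), or 0.72 times the casein signal. It was -0.39 without casein 18, -0.35 without casein 20 and -0.64 without soy 149.

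**Figure D2:**
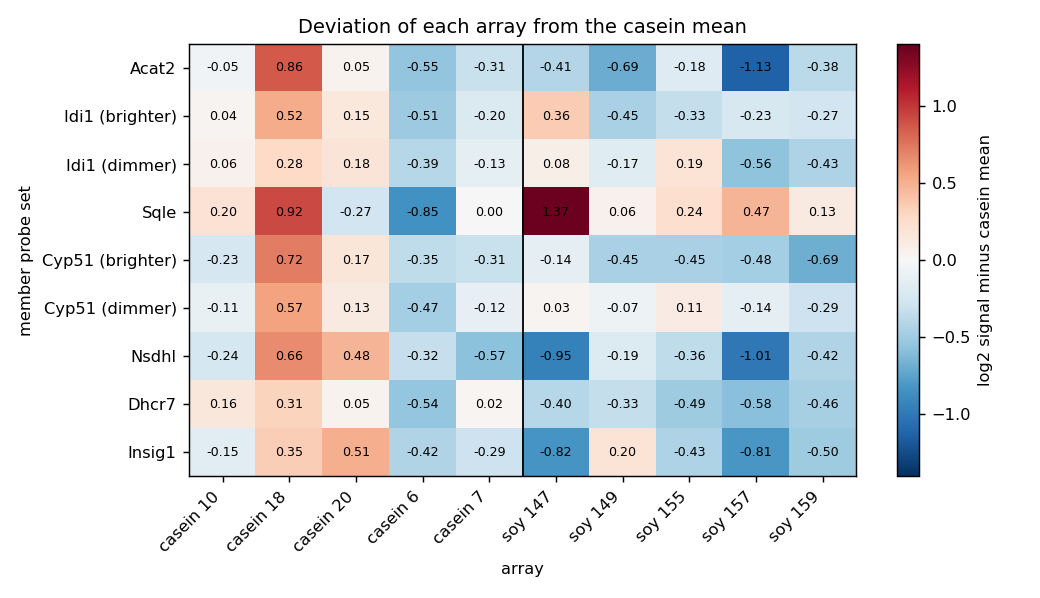
Log2 signal of each array (columns) minus the casein mean of the same member probe set (rows); red is above and blue below the casein mean. Casein 18 is above it in all 9 rows and casein 6 below it in all 9, while soy 147 is far above it for Sqle and far below it for Nsdhl and Insig1.

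Within the casein diet, casein 18 and casein 6 were the extreme arrays for most member probe sets. The members were chosen with casein 18 in view, so nothing is read from the counts that follow. Casein 18 was the highest of the 10 arrays for 7 of the 9 probe sets, which holds for 8.59% of all tested probe sets, and the highest casein array for 8 of 9 (18.0% of all tested). It exceeded the mean of the other casein arrays by 0.35 for the dimmer Idi1 probe set, 0.38 for Dhcr7, 0.43 for Insig1, 0.65 for the brighter Idi1 probe set, 0.71 for the dimmer Cyp51 probe set, 0.83 for Nsdhl, 0.90 for the brighter Cyp51 probe set, 1.08 for Acat2 and 1.15 for Sqle. Casein 6 was the lowest casein array for 8 of 9 probe sets, which holds for 40.4% of all tested, by -1.07 for Sqle to -0.44 for the brighter Cyp51 probe set against the mean of the others, and for Nsdhl casein 7 was lower. The SD was larger in casein than in soy for 7 of 9 probe sets, against 39.1% of all tested, with Insig1 and the dimmer Idi1 probe set as the exceptions.

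Casein 18 and casein 6 lay on opposite sides, so their effects on the difference were opposite in sign. Over the 7 genes the median difference was -0.34 without casein 18 and -0.58 without casein 6. Without both, a setting chosen after seeing the data, it was -0.45, with -0.45 for Acat2, -0.18 for the brighter Idi1 probe set, 0.48 for Sqle, -0.32 for the brighter Cyp51 probe set, -0.47 for Nsdhl, -0.53 for Dhcr7 and -0.50 for Insig1. The signs of these 7 values were those found with all 10 arrays, from which nothing is read, as the members were chosen on this contrast.

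**Figure D3:**
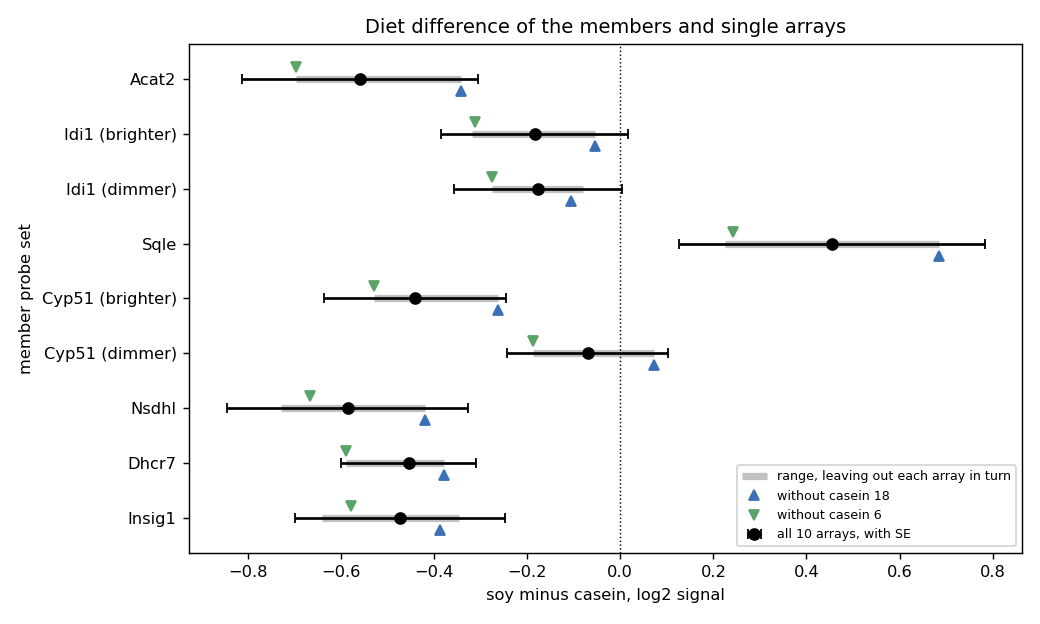
Soy minus casein difference on the log2 scale (horizontal axis) for each member probe set (vertical axis) with all 10 arrays and its SE, the range when each array is left out in turn (grey), and the values without casein 18 and without casein 6. The dimmer Cyp51 probe set crosses 0, Sqle stays above 0 and the other 7 stay below 0.

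The soy arrays did not order the members in 1 way. In soy 147 Sqle was 1.37 above its casein mean and the brighter Idi1 probe set 0.36 above, while Nsdhl was -0.95 and Insig1 -0.82 from theirs. Soy 157 had a like contrast, at 0.47 for Sqle, -1.01 for Nsdhl, -0.81 for Insig1 and -1.13 for Acat2. In soy 149 Insig1 was 0.20 above its casein mean, and Acat2 was -0.69 from its own. As a description over the 10 arrays, Nsdhl and Insig1 had the highest Pearson r of the 36 pairs of member probe sets, 0.924, and 0.926 without casein 18. The lowest were those of Sqle with Insig1, -0.247, and with Nsdhl, -0.19, which were -0.516 and -0.619 without casein 18. The 2 Cyp51 probe sets had an r of 0.814, and 0.509 without casein 18, and the 2 Idi1 probe sets of 0.66 and 0.548. All of these points share the 10 arrays and their scaling, and no p is given.

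Markers of other tissue differed between the arrays that the members set apart. The summed signal of the skeletal muscle list (15 of 16 genes with a probe set) ran from 3280 to 139030 in casein and from 2982 to 159545 in soy, with 139030 in casein 6 and 3734 in casein 18. It was 65871 in soy 147, 119828 in soy 149 and 159545 in soy 157. The lymphocyte list (12 of 16) ran from 4278 to 19314 in casein, lowest in casein 6, and from 3183 to 24036 in soy, lowest in soy 149. The luminal epithelial list (11 of 12) ran from 854, in casein 6, to 12837 in casein, with 6455 in casein 18. In soy it ran from 1013, in soy 159, to 7796. The adipocyte list (7 of 10) ran from 23803 to 34101 in casein and from 23347 to 40192 in soy, with 29380 in casein 18. No gene of these lists was at 0 in any array. Casein 18 was not the highest array in any of the 4 sums, and was in place 3 for the luminal sum. The mean log2 signal of each list was also set against the mean of the 7 members, each scaled to its own SD. Over the 10 arrays the Pearson r was -0.589 for muscle, 0.265 for lymphocytes, 0.406 for luminal epithelium and 0.175 for adipocytes. For the lists of basal epithelium, milk, nerve and endothelium it was 0.538, 0.369, -0.23 and -0.0527. With the muscle and lymphocyte signals as covariates the median member difference was -0.26, with -0.26 for Nsdhl, -0.21 for Insig1, -0.29 for Acat2, -0.085 for the dimmer Idi1 probe set and -0.018 for the dimmer Cyp51 probe set. With the actin ratio as covariate Nsdhl was at -0.91, the Idi1 probe sets at -0.29 and -0.28 and the dimmer Cyp51 probe set at -0.23. When casein 6 and soy 147, 149 and 157, the 4 arrays brightest for muscle, were omitted (a setting chosen after seeing the data), it was -0.47, with -0.03 for Sqle, -0.43 for the brighter Idi1 probe set and -0.21 for the dimmer Cyp51 probe set. The part of other cell types in the differences between casein 18, casein 6 and the other arrays was not tested.

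The list of other cholesterol synthesis enzymes was drawn up with earlier results of these data known, so it is no independent check on the members. The members were chosen on their diet difference, so the sizes of the differences are not compared. The list holds 14 genes, of which 12 had a probe set and 9 were tested, 6 with a lower and 3 with a higher mean in soy (66.7% lower, against 52.8% of all tested genes). The median was -0.091, and between -0.166 (without casein 6) and -0.033 (without soy 159) when 1 array was left out, with -0.047 without casein 18, -0.144 without soy 147 and -0.153 without soy 149. In limma 0 of the 9 had an adjusted p under 0.05, and 0 an unadjusted p under 0.05. Mvd, Hsd17b7 and Tm7sf2 were too dim to be tested.

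By the size of the p-value, the first was Pmvk, phosphomevalonate kinase, with a difference of -0.38 ± 0.18 (SE) and an adjusted p of 0.98 in limma. It had 8.29, 9.21, 8.83, 8.74 and 8.49 in casein 10, 18, 20, 6 and 7, and 8.32, 8.18, 8.49, 8.02 and 8.66 in soy 147, 149, 155, 157 and 159. Casein 18, 20 and 6 lay above all soy arrays. Lss, lanosterol synthase, was at -0.33 ± 0.16 (SE) with an adjusted p of 0.98 in limma, Ebp, the sterol isomerase, at -0.23 ± 0.13 (SE), and Sc5d, the sterol desaturase, at -0.18 and -0.24 at its 2 probe sets. Ebp was at -0.14 without casein 7, and the brighter Sc5d probe set at -0.058 without casein 18, -0.080 without soy 147 and -0.31 without casein 6. Casein 18 was the highest array for 5 of the 9 genes, or 55.6%, where all tested genes have 9.13%. Fdps, the farnesyl diphosphate synthase, chosen after its values were seen, was at 0.12 with all arrays and at 0.33 without casein 18, where its signal was 10.98 against 9.76 to 10.09 in the other casein arrays.

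The genes that control SREBP activity had a median of -0.078 (-0.038 without casein 18 or soy 157 and -0.036 without soy 149), and 0 of 9 tested passed in limma (0 had an unadjusted p under 0.05). Srebf2, which encodes the SREBP that mainly drives cholesterol synthesis, had a difference of 0.24 ± 0.14 (SE), with 9.70, 9.97, 10.13, 9.36 and 9.80 in casein and 10.01, 9.85, 10.16, 10.24 and 9.88 in soy, in the array order given above. All 5 soy arrays lay above the casein mean, and 2 casein arrays lay within the soy range. The difference was 0.13 without casein 6 and 0.090 with the actin ratio as covariate. Srebf1, whose products drive mainly fatty acid synthesis, was at 0.13 and 0.19 at its 2 probe sets. The escort protein gene Scap was at -0.11, Insig2, the second INSIG, at -0.08, and the site-1 and site-2 proteases Mbtps1 and Mbtps2, which cut SREBP, at -0.18 and -0.21. Several of these values rested on single arrays. Scap was at -0.00099 without casein 7, -0.058 without soy 149 and -0.21 without casein 6, and Mbtps2 at -0.075 without soy 149. Srebf1 at its brighter probe set ran from 0.034 (without soy 159) to 0.25 (without soy 147), and Insig2 from -0.18 (without soy 155) to 0.027 (without soy 157). Casein 18 was the highest array for 0 of these 9 genes.

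Genes of cholesterol uptake and transport had a median of -0.038, with 0 of 7 tested passing in limma (0 had an unadjusted p under 0.05). Stard3, a late endosomal sterol transporter, was at -0.25 ± 0.22 (SE) and Lipa, the lysosomal lipase that frees cholesterol from lipoprotein esters, at 0.24 ± 0.16 (SE). Stard3 was at -0.45 without soy 155 and -0.14 without soy 159, and Lipa at 0.14 without casein 18. Lrp1, a large endocytic receptor, was at -0.09 and Mylip, a ubiquitin ligase induced by oxysterols, at -0.06, and both turned above 0 when 1 array was left out (Lrp1 0.027 without soy 157, Mylip 0.043 without soy 149). Genes of esterification, efflux and oxysterols had a median of 0.144, with 5 of 6 tested above 0 and 0 passing in limma (0 had an unadjusted p under 0.05). Nr1h3, the oxysterol receptor LXR alpha, was at 0.18, Apoe at 0.18, the exporter Abcg1 at 0.17 and the sterol hydroxylase Cyp27a1 at 0.12. At its dimmer probe sets Abcg1 was at 0.30 and 0.13, and the Abcg1 values that follow are those of the brightest. Without casein 6 the median of this list was 0.065, Nr1h3 was at 0.064, Abcg1 at 0.065 and Apoe at 0.11. Apoe was at 0.31 without soy 149, Abcg1 at 0.27 without casein 10 or soy 147 and at 0.10 without soy 149. Cyp27a1 was at 0.061 without casein 18, 0.18 without soy 155 and 0.20 without casein 7. Casein 18 was the highest array for 0 of these 13 genes.

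Fatty acid synthesis genes, which SREBP-1 drives, were for the most part also highest in casein 18. Their list was drawn up with earlier results of these data known, so nothing is read from its counts. All 13 tested genes had a lower mean in soy (52.8% of all tested genes), with a median of -0.60 that was -0.40 without casein 18. Casein 18 was the highest array for 10 of them (9.13% of all tested genes). In limma 0 of the 13 passed, while 9 had an unadjusted p under 0.05, as had 309 of all 7151 tested genes. The adjusted p in limma was 0.98 for Pnpla3 (-1.25), Fads1 (-0.60), Me1 (-0.99) and Fasn (-0.63). At their dimmer probe sets Fasn was at -1.23 and Me1 at -0.63.

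**Figure D4:**
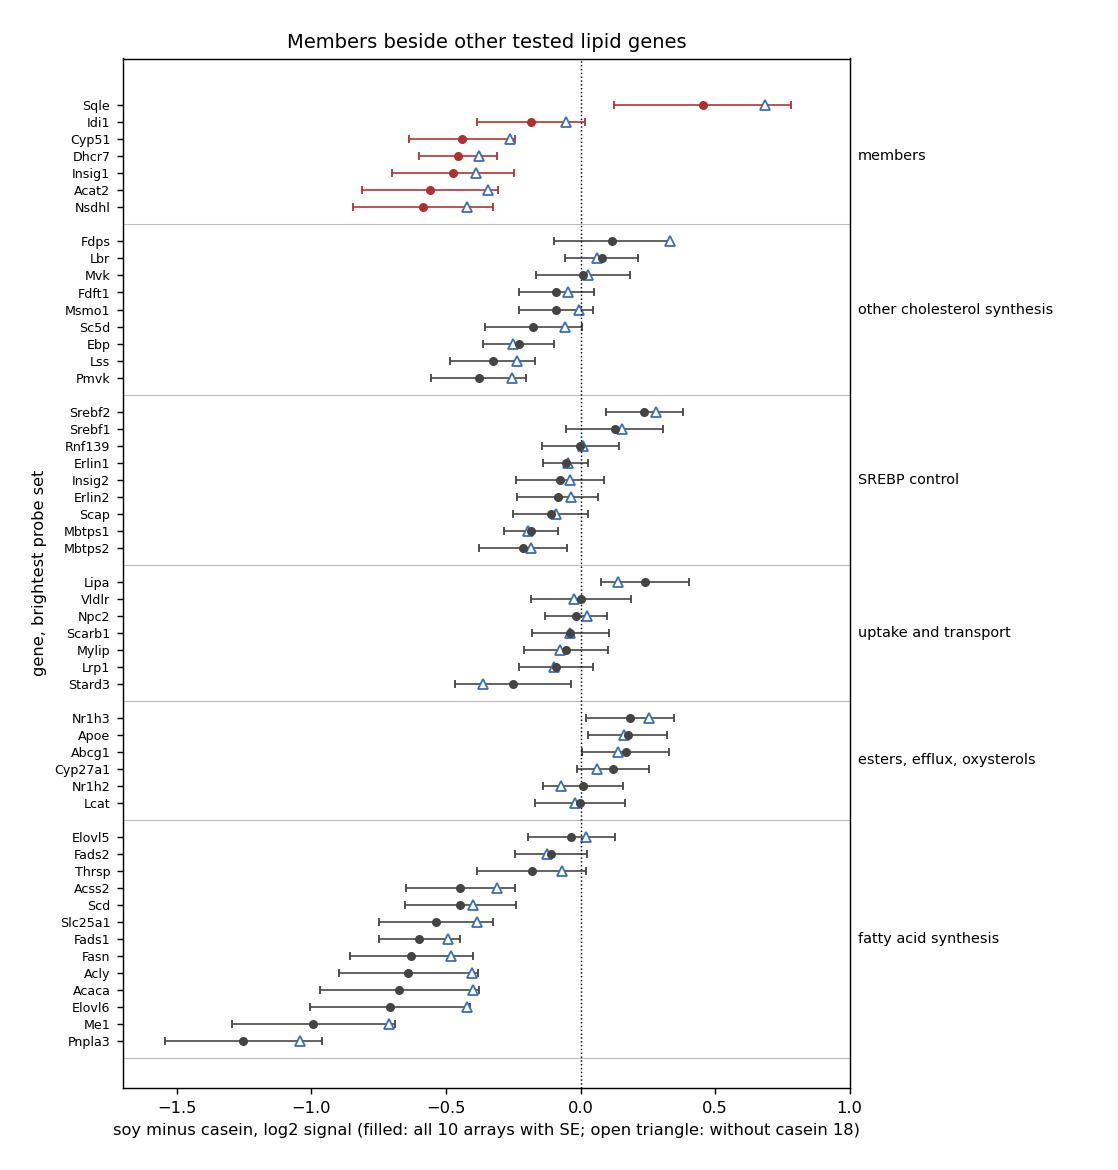
Soy minus casein difference on the log2 scale (horizontal axis) at the brightest probe set of each tested gene, by list; filled points are all 10 arrays with the SE and open triangles leave out casein 18. With all 10 arrays the members other than Sqle and all 13 fatty acid synthesis genes lie below 0, and the SREBP control, uptake and efflux genes lie between -0.25 and 0.24.

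The genes whose signal over the 10 arrays was most like the mean of the 7 members, each scaled to its own SD, included several of fatty acid synthesis. Among 8140 single-gene probe sets outside the members, the highest Pearson r was that of Elovl6, a fatty acid elongase, at 0.953, and 0.876 without casein 18. Its log2 signal was 8.45, 9.62, 8.46, 7.60 and 8.29 in casein and 8.10, 7.70, 7.85, 7.73 and 7.51 in soy, again with casein 18 highest. Acly, the ATP citrate lyase that supplies cytosolic acetyl-CoA, had 0.91 (0.776 without casein 18) and Mid1ip1, an activator of acetyl-CoA carboxylase, 0.909 (0.768). Me1, the NADPH-supplying malic enzyme, had 0.884 (0.686) at its dimmer probe set and 0.838 (0.627) at its brighter. The other 6 of the first 10 were Efcab14 (0.943, and 0.899 without casein 18), Abhd16a (0.904, 0.851), Tatdn2 (0.896, 0.729), Kpnb1 (0.873, 0.881), Memo1 (0.87, 0.861) and Atxn7l3b (0.862, 0.827). The order depended on casein 18. Without it Elovl6 was in place 8, Acly in 59, Mid1ip1 in 67 and the dimmer Me1 probe set in 175. Efcab14 was then in place 3, Kpnb1 in 6, Memo1 in 9, Abhd16a in 11, Atxn7l3b in 22 and Tatdn2 in 110. Lss, at 0.83, was the closest gene of the other cholesterol synthesis list, in the 18th place. These values describe likeness in 10 arrays that share their scaling and have no test.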

How the data were processed

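Total RNA of whole mammary glands was measured on 10 biotin-labelled, 1-colour arrays. The authors deposited 1 linear intensity per probe set and array, and the submitters' processing notes name MAS5 as the tool. Its version is not given in the sources used here. The 2% trimmed mean was 500.1 on each array, to 1 decimal, so this scaling was kept. A floor of 1 was applied before log2. Of 15923 probe sets, 57 controls were left out; the annotation named 1 gene for 12783, several for 312 and none for 2771. Of the named, 12748 were found in the GRCr8 gene table, which changed 0 symbols. Probe sets at or above the 40th percentile of mean log2 signal were tested. The number of arrays limits the precision.

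Diets were compared with limma 3.58.1 in R 4.3.3 (lmFit, eBayes with a trend on signal, two-sided). P-values were adjusted by Benjamini-Hochberg over the 9520 probe sets, with a threshold of 0.05. The brightest probe set stood for a gene in lists. Promoter windows came from RefSeq. Replicate numbers do not overlap between the diets. In simulated arrays of this comparison, with 9520 probe sets and independent noise, limma recovered 58% of 1.5-fold, 90% of 2-fold, 96% of 4-fold and 100% of 8-fold changes (50 each), with 7 false calls. Changes of all sizes were planted together, and differences in tissue content between arrays were not simulated. These shares may therefore be too high for the real arrays, above all for small changes.

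The members and lists were chosen with earlier results of these data known. Genes named are all member probe sets, up to 4 genes of smallest p in each of the 5 lists, Srebf2, Srebf1, Scap and Insig2 in any case, and the 10 probe sets most like the members; some other genes of the rule are not reported here. Alternatives covered scaling (quantile or median), other filters, log2 of the signal plus 16, no intensity trend, array weights, the actin ratio or the muscle and lymphocyte signals as covariates, averaging probe sets within genes, and leaving out each array. Leaving out casein 18 with casein 6, and the 4 arrays with most muscle signal, was added after seeing the data.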

Additional observations from a re-analysis of the deposited data

Results flagged for a closer look

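In 5 cases an array lay far from the other 4 of its diet, with a gap to the nearest array of more than 0.71 of the diet's range, among 62 sets of 5 arrays checked; chance gives about 1 in 20. The brighter Idi1 probe set was at 9.05 in soy 147, with the next soy array at 8.47. Mbtps2 was at 7.99 in casein 6, against 8.40 for the next casein array, and at 7.58 in soy 149, against 8.21 for the next soy array. Apoe was at 12.3 in soy 149, against 12.84, and the brightest Fasn probe set at 11.33 in soy 147, against 12.04. Casein 18 did not pass this limit for any member probe set.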

How the results depend on the processing

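The median member difference of -0.455 stayed below 0 under every alternative run, from -0.63 to -0.26, and from -0.58 to -0.34 when 1 array was left out. The members were chosen on this difference in these same arrays, so nothing is read from its kept sign. No alternative called a probe set at an adjusted p under 0.05 in limma. The 433 probe sets with an unadjusted p under 0.05 became 843 with no filter, 280 with a filter at the 60th percentile, 712 with array weights and 838 without the 4 arrays of highest muscle signal, and between 272 (without casein 18) and 704 (without casein 6) when 1 array was left out. With no filter or the stricter one, more or fewer probe sets were tested; for the other settings the cause was not tested. With the muscle and lymphocyte signals as covariates the median turned to 0.0425 for SREBP control and 0.0543 for uptake genes, Insig2 to 0.0494 and Lrp1 to 0.0543. Without the 4 arrays of highest muscle signal the uptake median and Lrp1 were 0.0274, Insig2 0.225, Cyp27a1 -0.0106 and Sqle -0.0278. Without both casein 18 and casein 6 Insig2 was 0.0584 and Abcg1 -0.00636. Insig2 was 0.00486 with array weights and Srebf1 -0.0224 with the actin ratio. When 1 array was left out, the values ran from -0.115 to 0.0268 for the uptake median, -0.161 to 0.0268 for Lrp1, -0.181 to 0.027 for Insig2, -0.157 to 0.0431 for Mylip and -0.188 to 0.0714 for the dimmer Cyp51 probe set. The cause of these turns was not tested. No paired analysis was possible because the diets share no replicate number. Dim probe sets could not be set against background.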
